A study of Macaca mulatta with 18 samples.

Results

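The midlife contrast set the mean of 6 middle-aged male rhesus monkeys (Macaca mulatta) against the average of the mean of 6 young males and the mean of 6 old males, in RNA of the vastus lateralis, a thigh muscle. It lies near 0 for genes that move steadily with age. It departs from 0 for genes that peak or dip in midlife, and also where young or old animals alone differ. Mean age was 16.48 ± 0.31 years in the middle-aged, 6.00 ± 0.00 in the young and 26.83 ± 0.22 in the old group (SEM of 6 animals each). The contrast used all 18 animals of the series and 8589 of the 20046 gene symbols on the array. A gene entered when a probe that carries its symbol alone had a detection p under 0.05 on 6 or more of the 18 arrays. Where several probes qualified, the brightest was used. The authors name no treatment of the animals and took the biopsies from monkeys of ongoing studies. All animals were housed individually in one colony on the same monkey chow with meals close to free feeding. Each gave 1 frozen biopsy and 1 array, so the replicates are animals of 1 sex from a single colony. The array is the Sentrix Human HT-12 BeadChip. Its probes match human transcripts, so a probe's brightness in the monkey depends on the transcript level and on how well the sequence fits.

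Levels are given in log2 units above the mean of all probes of the same array. They are the Z scores of an array (the log intensity minus its mean, divided by its SD) multiplied by the mean SD of an array, 1.19 log2 units, so that a difference of levels reads as a log2 fold change. Only levels of the same gene are compared, since different probes bind with different strength.

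Vastus lateralis is a mixed muscle with slow, oxidative and fast, glycolytic fibres, and the biopsy also carries vessels, blood, nerve and connective tissue. Muscle fibres are long-lived cells whose proteins are renewed through chaperones, which fold proteins, the proteasome, which degrades proteins tagged with ubiquitin, and autophagy, which delivers larger cargo to the lysosome. Peroxisomes and mitochondria share the breakdown of fatty acids, and the circadian clock, a feedback loop of activating and repressing transcription factors, runs in muscle as in other tissues. In a bulk biopsy, a lower level from fewer cells of a type and from less RNA per cell cannot be told apart.

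The 10 muscle fibre markers on the list all entered the test, among them TNNT3 (fast troponin T) at 7.47 to 8.20 in middle-aged, 7.24 to 7.82 in young and 7.04 to 7.92 in old animals. The spread of the arrays differed by age. The SD of the natural log intensities over all probes was 0.711 to 0.827 in middle-aged animals (mean 0.788), 0.806 to 0.863 in young (mean 0.836) and 0.806 to 0.877 in old animals (mean 0.841). The middle-aged mean lay 0.0510 below that of the other 12 animals (exact permutation test over 18564 splits, two-sided, p = 0.00102, 0.00614 after adjustment over 6 array measures). Middle-aged replicate 6 had the narrowest array. The brightest probe of an array read 19899 to 28859 in middle-aged, 26023 to 37991 in young and 29029 to 38145 in old animals, while the median intensity lay between 76 and 90 in middle-aged, 71 and 94 in young and 73 and 97 in old animals. Division by the array SD makes the spread of all arrays equal, and without that division bright genes read lower in midlife. Among the brightest of 5 equal groups of genes by mean level, the median difference was -0.003 on the Z-score scale, 0.004 after quantile normalization and -0.23 when the arrays were only centred. In the group of genes next in brightness it was -0.09, -0.01 and -0.19 on the same 3 scales. Over all 8589 genes the median was -0.03, with 3728 genes above 0 and 4861 below, and -0.10 with the arrays centred only. Young replicate 6 stood apart from the other arrays (mean correlation 0.931), so results are also given without it.

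**Figure D1:**
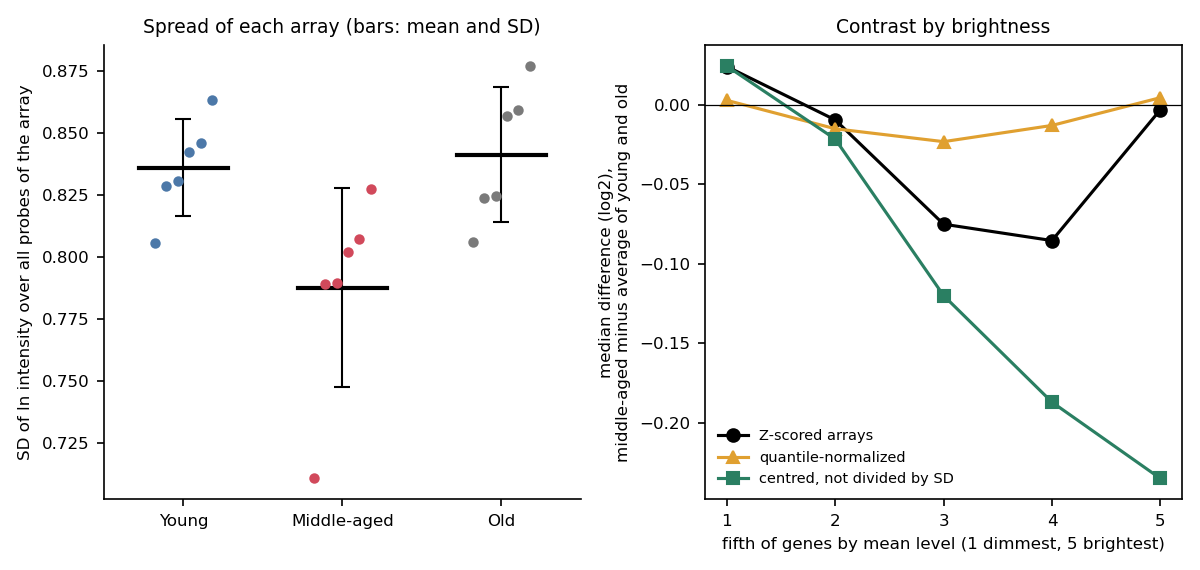
Left, SD of the natural log intensities of each array by age (points are animals, bars the mean and SD, n = 6 per age); right, median difference of middle-aged minus the average of young and old animals (log2) for genes in 5 equal groups by mean level, under 3 scalings. The middle-aged arrays average 0.788, below 0.836 in young and 0.841 in old, and the 3 scalings part most in the brightest group, where arrays that were only centred give -0.23.

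After adjustment over all genes, 9 of 8589 genes passed in the midlife contrast (0.105% of those tested; limma, Benjamini-Hochberg adjusted p under 0.05). Of these, 6 were higher in midlife (0.0699%): TEDDM1, OAS1, NR1D1, IRX1, FLVCR2 and SPRN. The 3 lower genes (0.0349%) were TRAPPC12, PHTF2 and PECR. At an unadjusted p under 0.05, 1322 genes passed (15.4%), 550 higher (6.4%) and 772 lower (8.99%). Differences were small: the median absolute difference was 0.11 against a median standard error of 0.11, 209 genes differed by more than 0.5 and 22 by more than 1. None of the 9 genes had a second detected probe. All 9 sat just inside the threshold, with adjusted p between 0.0422 and 0.0445, and the next gene stood at 0.0647. On centred arrays the split turned from 6 higher and 3 lower to 1 higher and 4 lower. Against young animals alone, 0 genes were higher in midlife after adjustment and 2 were lower (0.0233%). Of the 9 genes only PECR was among these.

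TRAPPC12, a subunit of the TRAPP complex that tethers vesicles on their way through the Golgi, had a lower mean in midlife than at both other ages. Its level was 1.31 to 1.72 in middle-aged animals (median 1.504), against 1.79 to 2.44 in young (median 2.07) and 1.95 to 2.53 in old animals (median 2.12). All 6 middle-aged animals lay below all 12 others, one of 2 genes with that separation (0.0233% of the genes tested). The deposited intensities, before any scaling, showed the same: 196 to 329 in middle-aged, 405 to 609 in young and 378 to 757 in old animals. The difference was -0.63 ± 0.11 (SE; 95% CI -0.86 to -0.40), or 1.55-fold lower (limma adjusted p = 0.0422). It was -0.58 against young (adjusted p = 0.145) and -0.68 against old animals (adjusted p = 0.0294). Old and young animals differed by 0.09. TRAPPC12 passed in 7 of the 18 fits that left out 1 animal and in 5 of 10 other settings, and the difference stayed between -0.74 and -0.56 over those settings. Without young replicate 6 it was -0.66 with an adjusted p of 0.0533.

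PHTF2, named as a putative homeodomain transcription factor, was lower in midlife by the same pattern. Its level was 0.36 to 1.13 in middle-aged (median 0.67), 0.93 to 1.33 in young (median 1.22) and 1.14 to 1.56 in old animals (median 1.39). Of the 6 middle-aged animals, 5 lay below all young and old animals, and the sixth fell among the young ones. The limma difference was -0.59 ± 0.11 (adjusted p = 0.0445). It was -0.48 against young (adjusted p = 0.184) and -0.69 against old animals (adjusted p = 0.0231). The raw intensities overlapped, at 111 to 227 in middle-aged, 195 to 280 in young and 209 to 367 in old animals. PHTF2 passed in 6 of the 18 fits without 1 animal and in 6 of 10 other settings.

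PECR, a peroxisomal reductase of fatty acid chain elongation, had the smallest p of the contrast. Its level was 1.31 to 1.96 in middle-aged (median 1.57), 2.13 to 2.503 in young (median 2.34) and 1.80 to 2.20 in old animals (median 1.94). No middle-aged animal reached the young range, and 5 of 6 lay below all old animals. In raw intensities the middle-aged range of 196 to 438 overlapped the young range of 405 to 656. The difference was -0.53 ± 0.09, or 1.45-fold lower (adjusted p = 0.0422). It was larger against young animals (-0.71, adjusted p = 0.00947) than against old animals (-0.35, adjusted p = 0.0994). PECR was one of 2 genes lower than in young animals after adjustment (0.0233%). Old animals lay 0.37 below young ones (adjusted p = 0.155), so the lowest mean was that of midlife and the old mean lay between. PECR passed in 8 of the 18 fits without 1 animal and in 7 of 10 other settings. These pairwise differences share the middle-aged animals and are not independent of each other or of the contrast.

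**Figure D2:**
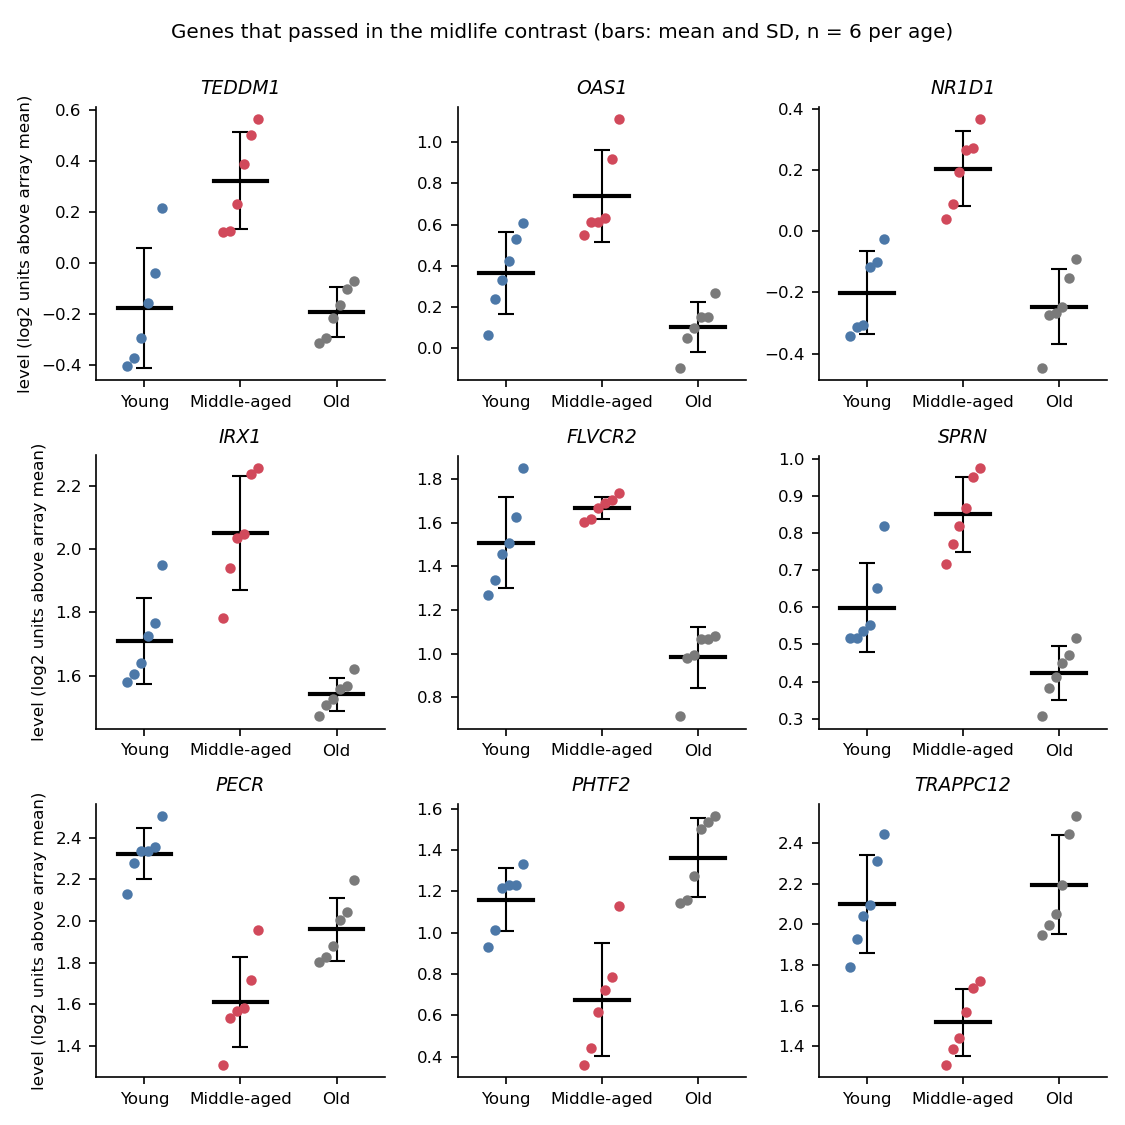
Levels (log2 units above the array mean) of the 9 genes that passed in the midlife contrast, by age; each point is 1 animal, the lines are the mean and SD (n = 6 per age). NR1D1 and TRAPPC12 are the 2 genes here in which no middle-aged animal overlaps a young or old one, though NR1D1 was detected only in middle-aged animals. FLVCR2 is mainly low in old animals.

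NR1D1 encodes REV-ERB alpha, a heme-binding nuclear receptor that represses the clock activator BMAL1 and is one of the most rhythmic transcripts of the clock. Its level was 0.04 to 0.37 in middle-aged (median 0.23), -0.34 to -0.03 in young (median -0.21) and -0.45 to -0.09 in old animals (median -0.26). All 6 middle-aged animals lay above all 12 others, one of 4 genes with that separation (0.0466%), and the raw intensities were 105 to 128 in middle-aged, 84 to 102 in young and 76 to 103 in old animals. The probe was dim. It was detected on all 6 middle-aged arrays and on none of the 12 others. It thus entered the test only through the age in which it was high, and its level in the other ages is a bound. The separation, the adjusted p and the passes in other fits rest on that entry and are descriptions, not support for a peak. Set against the dimmest detected probe of each other array, NR1D1 was at least 1.18-fold higher in midlife, a bound that was not itself tested. The limma adjusted p of 0.0422 belongs to the measured levels of NR1D1, which were below detection in all young and old animals. It passed in 7 of the 18 fits without 1 animal and in 7 of the 9 other settings that tested it. The clock time of the biopsies was not given in the sources used here.

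OAS1, an interferon-induced enzyme that senses double-stranded RNA and switches on RNase L, was higher in midlife. Its level was 0.55 to 1.11 in middle-aged (median 0.62), 0.06 to 0.61 in young (median 0.38) and -0.10 to 0.27 in old animals (median 0.13). Of the middle-aged animals 5 exceeded every other animal, and all 6 exceeded every old one. The limma difference was 0.50 ± 0.10 (adjusted p = 0.0445). It was 0.37 against young (adjusted p = 0.238) and 0.63 against old animals (adjusted p = 0.0196). Raw intensities were 150 to 191 in middle-aged, 110 to 157 in young and 98 to 135 in old animals. OAS1 passed in 2 of the 18 fits without 1 animal and in 5 of 10 other settings.

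TEDDM1, named as a transmembrane protein of the epididymis, had a level of 0.12 to 0.56 in middle-aged animals (median 0.31), -0.41 to 0.22 in young (median -0.22) and -0.31 to -0.07 in old animals (median -0.19). Only 1 young animal reached the middle-aged range and no old animal did. The raw intensities overlapped with both ages, at 108 to 156 in middle-aged, 81 to 116 in young and 76 to 112 in old animals. This probe too was dim, detected on 6 middle-aged, 2 young and 0 old arrays, and without the middle-aged arrays it would not have entered the test. With only the old arrays set at a bound, TEDDM1 was 1.33-fold higher. That is no strict lower bound, since most young arrays also lacked detection and kept their measured levels. The adjusted p of 0.0445 belongs to the limma fit of the measured levels, where TEDDM1 differed by 0.51. Against young animals alone TEDDM1 differed by 0.50 in that fit (adjusted p = 0.145). Its call held in 2 of the 18 fits without 1 animal and in 5 of 10 other settings.

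IRX1, a homeobox transcription factor of embryonic patterning, and SPRN, a small membrane protein of the prion family also called Shadoo, were ordered middle-aged, young, old by their means. IRX1 had a level of 1.78 to 2.26 in middle-aged (median 2.04), 1.58 to 1.95 in young (median 1.68) and 1.47 to 1.62 in old animals (median 1.54), a difference of 0.42 ± 0.08. SPRN had a level of 0.72 to 0.98 in middle-aged (median 0.84), 0.52 to 0.82 in young (median 0.54) and 0.31 to 0.52 in old animals (median 0.43), a difference of 0.34 ± 0.06. In both genes 4 of 6 middle-aged animals lay above all young ones and all 6 lay above all old ones (limma adjusted p = 0.0445 each). Against young animals IRX1 differed by 0.34 (adjusted p = 0.185) and SPRN by 0.25 (adjusted p = 0.224). Against old animals they differed by 0.51 and 0.43 (adjusted p = 0.0196 each). Before scaling the ages overlapped. Raw intensities of IRX1 were 303 to 476 in middle-aged, 314 to 428 in young and 291 to 365 in old animals. Those of SPRN were 142 to 221, 144 to 194 and 129 to 170 in the same order. On centred arrays the differences were 0.31 and 0.30 (limma adjusted p = 0.0694 each). Of the 18 fits without 1 animal, IRX1 passed in 4 and SPRN in 1, and each passed in 6 of 10 other settings.

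FLVCR2, a membrane transporter of the major facilitator family, had its highest mean in midlife, but the young mean lay close to it. Its level was 1.60 to 1.73 in middle-aged (median 1.68), 1.27 to 1.85 in young (median 1.48) and 0.71 to 1.08 in old animals (median 1.03). None of the middle-aged animals exceeded the highest young animal. The difference was 0.42 ± 0.08 (adjusted p = 0.0445), with 0.69 against old animals (adjusted p = 0.00515) and 0.16 against young ones (adjusted p = 0.566), and old animals lay 0.52 below young ones (adjusted p = 0.0467, one of 5 genes lower in that comparison, 0.0582%). FLVCR2 passed in 1 of the 18 fits without 1 animal and in 6 of 10 other settings. On centred arrays its difference was 0.33 (limma adjusted p = 0.0694). Its raw intensities overlapped, at 234 to 367 in middle-aged, 268 to 340 in young and 180 to 246 in old animals. Against old animals alone, 36 genes were higher in midlife (0.419%) and 20 lower (0.233%).

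**Figure D3:**
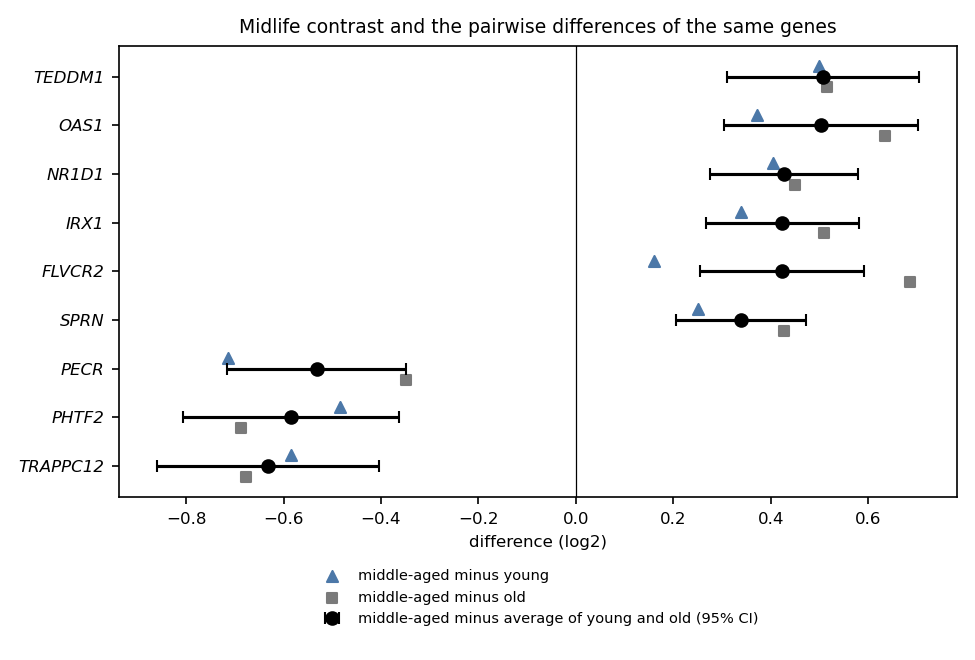
Differences (log2) of the 9 genes: middle-aged minus the average of young and old animals with its 95% confidence interval (circles), middle-aged minus young (triangles) and middle-aged minus old (squares), which share the same middle-aged animals. TRAPPC12 differs by -0.58 from young and -0.68 from old, FLVCR2 by 0.69 from old and 0.16 from young, and PECR by -0.71 from young and -0.35 from old, while the values of NR1D1 against both ages and of TEDDM1 against old animals are set against undetected probes.

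Several genes came close. PBX3, a homeodomain partner of HOX proteins, differed by -0.75 ± 0.15 (adjusted p = 0.0647), with -1.06 against young and -0.43 against old animals. GSTT2, a glutathione transferase, differed by -0.49 ± 0.10 (adjusted p = 0.0647). Its probe was detected on 1 middle-aged, 6 young and 5 old arrays. Apart from NR1D1 and TRAPPC12, 4 genes kept all middle-aged animals apart from the other 12 without passing the test. LAPTM4B, a lysosomal membrane protein, had a level of 4.72 to 5.16 in middle-aged, 3.74 to 4.47 in young and 3.79 to 4.64 in old animals (difference 0.60, adjusted p = 0.0970), but its raw intensities overlapped, at 1603 to 3662 in middle-aged, 1820 to 2387 in young and 1619 to 3366 in old animals. IDO2, an enzyme of tryptophan breakdown, differed by 0.54 and FEN1, the flap endonuclease of DNA replication and repair, by -0.51 (limma adjusted p = 0.124 each). Their raw intensities overlapped too. Those of IDO2 were 116 to 251 in middle-aged, 89 to 138 in young and 74 to 134 in old animals. Those of FEN1 were 125 to 179, 160 to 383 and 164 to 367 in the same order. A second detected probe of LAPTM4B differed by 0.35 and one of FEN1 by -0.36. TAOK2, a stress-activated kinase, was detected on 6 middle-aged, 4 young and 0 old arrays. Without the middle-aged arrays it would not have entered the test, so its separation is only a description. Its raw intensities overlapped, at 99 to 127 in middle-aged, 83 to 114 in young and 76 to 109 in old animals. With only the old arrays set at a bound it was 1.15-fold higher in midlife, while undetected young arrays kept their measured levels. The adjusted p of 0.124 belongs to the limma fit of the measured levels.

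Gene lists were read against the background shares of 6.4% higher and 8.99% lower at an unadjusted p under 0.05, and none of the genes named from here on passed the adjusted threshold unless stated. On the Z-score scale these shares depend on brightness, and the lists were not matched for it. In the middle of the 5 brightness groups, 31% of 1717 genes lay above 0, with 67 higher and 239 lower at that p. In the next brighter group 30.4% of 1718 lay above 0, with 69 higher and 219 lower. In the dimmest group 58.6% did, with 150 higher and 64 lower. Chaperones had the highest share of higher genes among the lists of more than 10 genes. Of 28 heat shock genes tested, 21 lay above 0 and 9 had an unadjusted p under 0.05 in the higher direction (32.1%), none in the lower direction, with a median of 0.22. HSPB8, a small heat shock protein of chaperone-assisted autophagy, had a level of 5.39 to 6.43 in middle-aged (median 5.93), 4.81 to 5.62 in young (median 5.30) and 4.86 to 5.93 in old animals (median 5.08), a difference of 0.64 ± 0.18 (adjusted p = 0.135). CRYAB, the alpha B crystallin of the Z disc, differed by 0.78 ± 0.26, with 1.19 against young and 0.37 against old animals. DNAJA1, a DNAJ cochaperone, differed by 0.55 ± 0.19, with 0.17 against young and 0.92 against old, so that the members did not share 1 age pattern. HSPB2, which binds the myotonic dystrophy kinase, ran the other way (-0.28). The list median was 0.28 after quantile normalization and 0.10 on centred arrays, where 0 members were higher at that p and 1 was lower, and the list scores of the ages overlapped: -0.23 to 0.55 in middle-aged, -0.36 to 0.22 in young and -0.28 to 0.36 in old animals. Of the unfolded protein response of the endoplasmic reticulum, 9 of 12 tested genes lay below 0 (median -0.13), among them XBP1, its spliced transcription factor, at -0.38. That median was -0.0408 without middle-aged replicate 6, with 7 of 12 below 0, and -0.0495 without young replicate 6.

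Immediate early genes, which respond within minutes to contraction or handling, also leaned higher, with 18 of 22 above 0 and a median of 0.14. At an unadjusted p under 0.05, 4 were higher (18.2%) and 1 was lower (4.55%). Without middle-aged replicate 6, 16 of 22 lay above 0, the median was 0.18 and 1 was higher at that p. FOS had a level of 1.46 to 5.78 in middle-aged (median 2.80), 0.33 to 1.84 in young (median 0.77) and 0.35 to 5.71 in old animals (median 1.11), a difference of 1.97 ± 0.70 (adjusted p = 0.213). The ranges overlapped widely, and a single old animal reached the top of the middle-aged range. FOSB, a member of the same family as FOS, differed by 0.85 and IER5, a stress-induced regulator, by 0.76.

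Of 14 tested clock genes, 12 lay below 0 in midlife with a median of -0.10, beside 4861 of all 8589 genes. NR1D1, undetected at the other ages, lay above 0. At an unadjusted p under 0.05, 4 of the 14 were lower (28.6%) and 1 was higher (7.14%). The list median was -0.20 against old animals and -0.09 against young ones. TEF, an output transcription factor of the clock, had a level of 0.43 to 1.16 in middle-aged (median 1.07), 1.003 to 1.74 in young (median 1.33) and 1.28 to 1.66 in old animals (median 1.44). All old animals lay above the middle-aged range and the young range overlapped it, for a difference of -0.47 ± 0.12 (adjusted p = 0.124). CSNK1E, the kinase that marks PER proteins for degradation, differed by -0.41 ± 0.11 with 4 of 6 middle-aged animals below all others, but its second detected probe by only -0.18 ± 0.11 (unadjusted p = 0.136). PER3 differed by -0.30. The list score was -0.12 to -0.08 in middle-aged, -0.16 to 0.19 in young and -0.04 to 0.26 in old animals. The middle-aged animals formed the narrowest range.

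Peroxisomal genes lay below 0 throughout. All 12 tested members of 28 on the list had lower means in midlife, with a median of -0.19, and 12 of 12 lay below 0 also after quantile normalization, on centred arrays and without young replicate 6. At an unadjusted p under 0.05 there were 4 lower members (33.3%), PECR among them. PEX5, the receptor that imports proteins into peroxisomes, had a level of 1.54 to 3.27 in middle-aged (median 2.65), 2.23 to 3.62 in young (median 3.08) and 2.91 to 3.10 in old animals (median 3.00), a difference of -0.51 ± 0.21 with overlapping ranges. PEX2, a ubiquitin ligase of the import machinery, differed by -0.35. Middle-aged replicate 6, the narrowest array, had the lowest list score (-0.52, against -0.19 to 0.02 for the remaining 5 of that age). When it was left out, 11 of 12 members lay below 0, the median was -0.15 and 1 member had an unadjusted p under 0.05.

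Lists of the degradation machinery also had medians below 0. Of 24 tested ubiquitin ligases and FOXO atrophy genes 19 lay below 0, 8 of them at an unadjusted p under 0.05 (33.3%), with a median of -0.15. The list median was -0.27 against old animals and -0.10 against young ones, and 0.15 for old minus young animals, so much of it came from higher levels in old animals. KLHL21, a substrate adaptor of cullin ligases, had a level of 0.80 to 1.28 in middle-aged (median 1.08), 1.12 to 1.70 in young (median 1.38) and 1.22 to 2.14 in old animals (median 1.98). Of 6 middle-aged animals 5 lay below all others, for a difference of -0.60 ± 0.13 (limma adjusted p = 0.0827). KLHL21 differed by -0.84 from old animals (adjusted p = 0.0196) and by -0.37 from young ones (adjusted p = 0.355). The contrast passed when old replicate 1 was left out (adjusted p = 0.0214). FBXO6, an F-box protein that recognises glycoproteins, had a level of 0.15 to 0.63 in middle-aged (median 0.41), 0.63 to 1.21 in young (median 0.92) and 0.42 to 1.86 in old animals (median 1.28), a difference of -0.69 ± 0.16 (adjusted p = 0.112). KLHL40, a stabiliser of thin filament proteins that is on the same list, ran the other way (0.76). Autophagy genes had 19 of 26 below 0 with a median of -0.09, among them MAP1LC3B, the lipid-anchored marker of autophagosomes, at -0.41 and ATG2A, a lipid transfer protein, at -0.39. Of 32 proteasome genes 24 lay below 0 with a median of -0.12, among them PSMD11 at -0.26, but only 4 were lower (12.5%) and 2 higher (6.25%) at that p, close to the background shares. Without middle-aged replicate 6 the lower members at an unadjusted p under 0.05 were 3 instead of 8 ubiquitin ligases and 3 instead of 6 autophagy genes, while over all genes they were 485 instead of 772, and the chaperones still had 9 higher members.

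**Figure D4:**
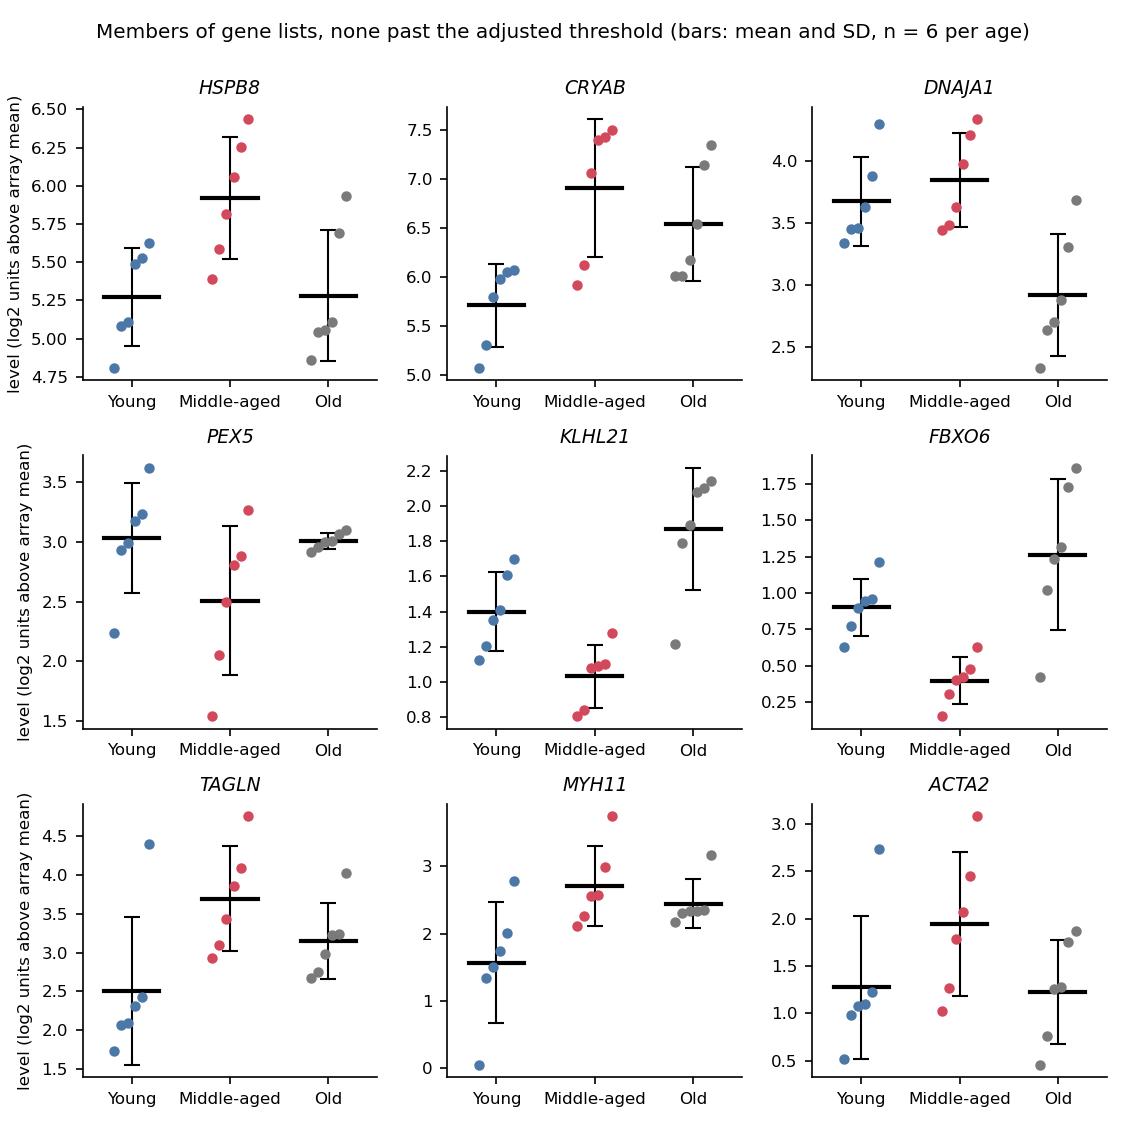
Levels (log2 units above the array mean) of 9 list members by age; points are animals, lines the mean and SD (n = 6 per age), and none of these genes passed after adjustment. The chaperones in the upper row differ in which other age is low, KLHL21 and FBXO6 are lowest in midlife, and young replicate 6 is the highest young animal for TAGLN, MYH11 and ACTA2.

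Lists of bright genes depended on the scaling, in sign as well as size. Complex I subunits of the respiratory chain had 22 of 27 members above 0 and a median of 0.19 on the Z-score scale, but -0.12 on centred arrays, where 21 members lay below 0. Subunits of complexes II to V had 26 of 32 above 0 and a median of 0.15, but -0.12 on centred arrays. For ATP5F1B, the catalytic beta subunit of ATP synthase, the difference was 0.32 on the Z-score scale and -0.11 on centred arrays. Cytosolic ribosomal proteins had 45 of 60 above 0 with a median of 0.08, but 0.00 after quantile normalization and -0.22 on centred arrays, where 29 members were lower at an unadjusted p under 0.05. The muscle fibre markers followed, with medians of 0.20, 0.00 and -0.27 on these 3 scales. No direction can be given for these lists. PDHB, the beta subunit of pyruvate dehydrogenase, kept its sign at 0.44 ± 0.13 and 0.16 on centred arrays (adjusted p = 0.159).

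Fibre type genes varied widely between animals of 1 age. All 10 tested slow fibre genes lay above 0 (median 0.34), but the list score ran over -1.84 to 1.74 in middle-aged, -1.45 to 1.10 in young and -1.62 to 0.75 in old animals. The median was 0.04 on centred arrays and 0.04 without middle-aged replicate 6. CASQ2, the calsequestrin of slow and cardiac muscle, was the only member with an unadjusted p under 0.05, at 1.396 to 3.17 in middle-aged (median 2.66), 0.18 to 2.08 in young (median 1.39) and 0.67 to 2.65 in old animals (median 1.497), a difference of 1.06 ± 0.32 (adjusted p = 0.159). Fast fibre genes were split, 7 above and 8 below 0, with MYH4, the fastest myosin heavy chain, at -1.41 ± 0.82. Among sarcomere genes ANKRD1, a stretch-induced titin-binding protein, differed by 1.47 ± 0.46, with 2.03 against young and 0.90 against old animals. At the neuromuscular junction 8 of 10 genes lay above 0 (median 0.10, 0.0950 on centred arrays). AGRN, which clusters acetylcholine receptors, had a level of 0.77 to 1.48 in middle-aged (median 1.18), 0.74 to 1.04 in young (median 0.92) and 0.50 to 0.91 in old animals (median 0.63), with 4 middle-aged animals above all others and a difference of 0.34 ± 0.10 (adjusted p = 0.139). The 2 detected probes of RAPSN, the intracellular scaffold of these receptors, disagreed in sign, and the brighter was detected on 0 middle-aged, 5 young and 3 old arrays.

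Glucose and energy sensing genes gave smaller shifts. Of 16 genes of glycogen metabolism and glucose uptake 5 were lower (31.2%) and 1 was higher (6.25%) at an unadjusted p under 0.05, beside 8.99% and 6.4% of all genes. PHKG1, the catalytic subunit of phosphorylase kinase, was at -0.46 and PPP1R3A, the glycogen-targeting subunit of muscle, at -0.43. The median of that list was -0.04, with -0.009 against young animals and -0.16 against old ones, and 0.16 for old minus young animals. AMPK and sirtuin genes had 11 of 13 below 0 (median -0.11), but only 1 was lower at that p (7.69%), below the background of 8.99%. Antioxidant genes had 19 of 25 below 0 (median -0.12), with 2 lower at that p (8%, also below the background) and a median of -0.00995 without middle-aged replicate 6. Among them were GCLM, which sets the rate of glutathione synthesis, at -0.47 and NQO1, a quinone reductase, at 0.54. Lists of glycolysis, fatty acid oxidation, myogenesis, insulin and mTOR signalling, inflammation and cholesterol synthesis had medians between -0.07 and -0.003. Of the interferon list, 8 genes were tested, 5 lay above 0 and OAS1 alone passed. IFI27, an interferon-induced mitochondrial protein, differed by 0.85 ± 0.30 (adjusted p = 0.209).

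**Figure D5:**
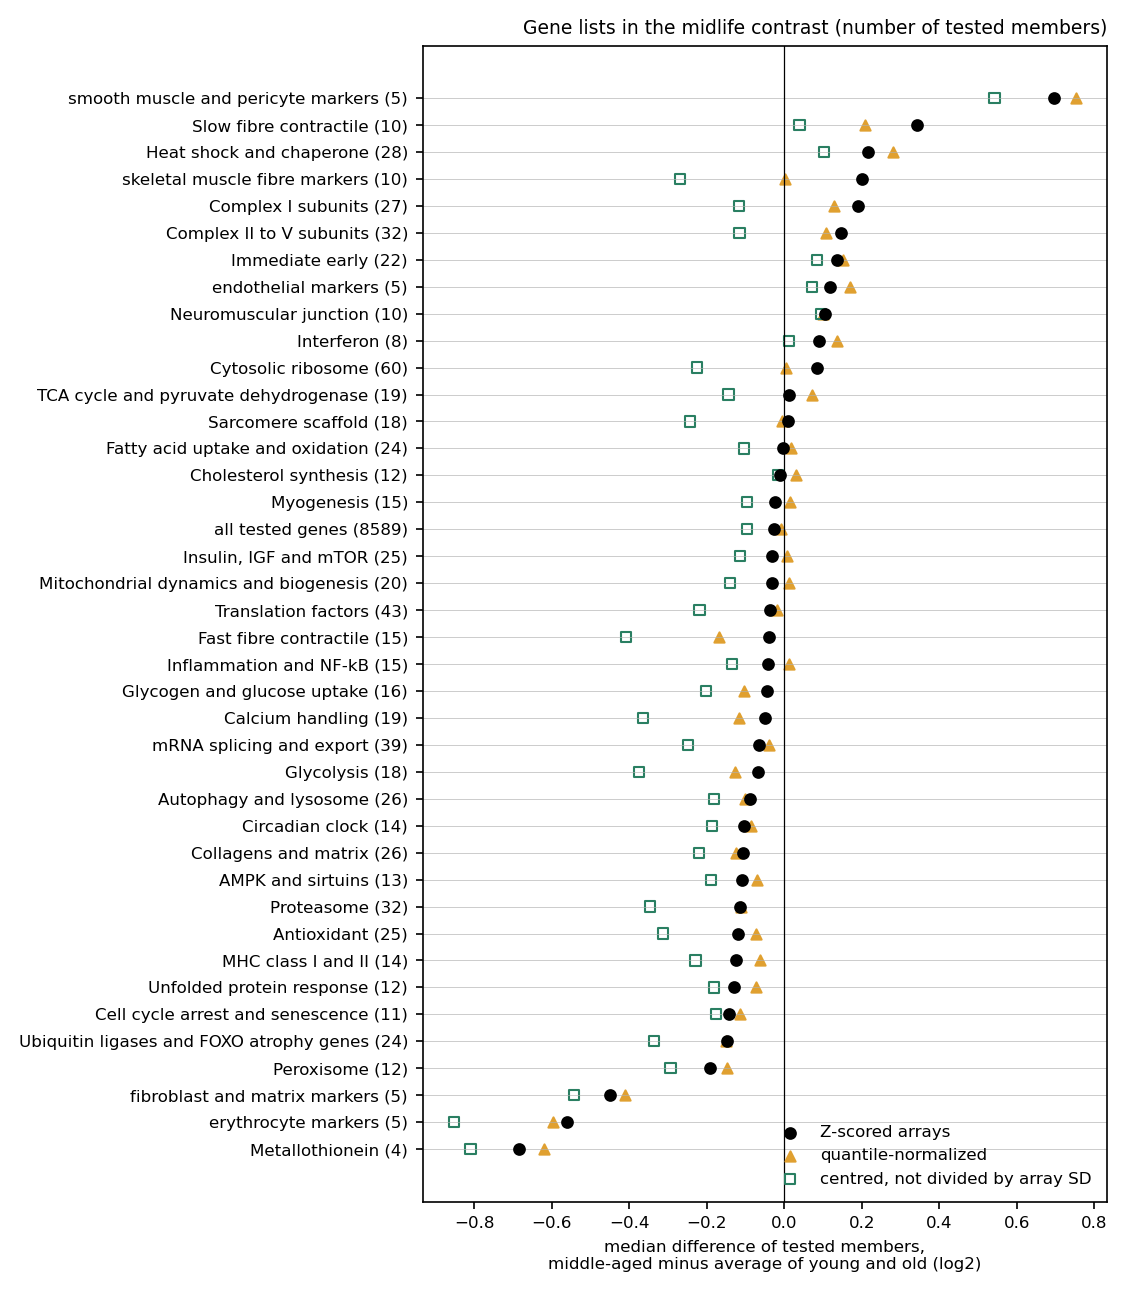
Median difference (log2) of the tested members of each list, middle-aged minus the average of young and old animals, with the number of members, on Z-scored arrays (circles), quantile-normalized arrays (triangles) and arrays centred without division by their SD (squares). Heat shock genes stay above 0 and peroxisomal genes below 0 on all 3 scales, while complex I, complexes II to V, the ribosome and the muscle fibre markers are above 0 on Z-scored arrays and below 0 on centred ones.

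Markers of other cells that a biopsy can hold were read in the same contrast. Of 5 tested smooth muscle and pericyte markers of 7 listed, 4 lay above 0 and 3 had an unadjusted p under 0.05, the contractile genes TAGLN at 0.87 ± 0.33, MYH11 at 0.70 ± 0.30 and ACTA2 at 0.70 ± 0.32, while the pericyte receptor PDGFRB was at -0.02. TAGLN had a level of 2.93 to 4.76 in middle-aged (median 3.65), 1.73 to 4.39 in young (median 2.20) and 2.68 to 4.03 in old animals (median 3.10). Young replicate 6 was the highest young animal, and without it the list median was 0.82 instead of 0.70. The list median was 0.67 against young animals and 0.26 against old ones. On centred arrays 3 of the 5 markers lay above 0 (median 0.54) and 0 had an unadjusted p under 0.05. A second detected probe of TAGLN differed by 0.54 ± 0.31 (unadjusted p = 0.0960). The 5 endothelial markers tested lay above 0 (median 0.12), with VWF at 0.33. Fibroblast and matrix markers had 5 of 5 below 0 (median -0.45), but 3 of 5 and -0.22 without young replicate 6. By its medians the erythrocyte list was lower than in old animals (-2.35) and higher than in young ones (0.81), with HBA2 at 2.17 to 5.13 in middle-aged (median 2.79), 1.85 to 2.66 in young (median 2.30) and 2.76 to 7.73 in old animals (median 6.57), so the contrast of -1.03 ± 0.59 is not a dip. Metallothioneins were likewise high in some old animals: MT2A was 1.03 to 1.74 in middle-aged, 0.71 to 2.11 in young and 1.55 to 5.09 in old animals. Of T cell and neutrophil markers 1 each was tested. The part of vessel, blood and connective tissue RNA in the results above was not tested.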

How the data were processed

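RNA isolated with Trizol was amplified, labelled with biotin and hybridised to 1 array per animal. The authors deposited the linear intensity of each of 47323 probes as GenomeStudio 2011.1 read it out. Whether a background was subtracted is not given in the sources used here, nor are chip position and scan batch. The deposited detection p-value compares each probe with negative controls. The authors also deposited Z scores, their natural log intensities standardised within each array. Z scores computed anew from the intensities, which were used here, differed from these by at most 0.0184.

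Of the probes, 30113 carry 1 gene symbol in the platform annotation, 8 several and 17202 none, and 14188 passed the detection filter. The 3 ages were fitted together in limma 3.58.1 under R 4.3.3 and p-values were adjusted by Benjamini-Hochberg over 8589 genes (threshold 0.05), and the pairwise differences came from the same fit. Array measures were compared by exact permutation (Python 3.11.15, numpy 2.4.6), with figures by matplotlib 3.10.9. For a list score, each tested gene was centred on its mean over all animals and the list averaged within an animal. A bound on a fold raises a probe to the dimmest detected probe of its array, only in ages in which no array detected it. Ages with some detection keep their measured levels. Precision is limited by the number of arrays.

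The contrast, its genes and the gene lists were chosen with earlier results of these data known. Genes are named by a rule: all that passed, the 5 smallest p-values in each direction, and of each list up to 3 genes in the direction of its median and 1 in the other by p-value. LAPTM4B, IDO2, TAOK2 and FEN1 were added because no middle-aged animal overlapped the others. Replicate numbers are taken from the labels and do not pair the animals. Alternatives were quantile normalization, centring without division by the SD, neqc with an offset of 16, the authors' series matrix, no filter, a filter at detection p under 0.01, averaging the probes of a gene, array weights, a block for the replicate number, 15 animals (young replicate 6 and 2 old replicates, 1 and 2, left out), each animal left out, and the study's thresholds (mean Z score above 0, absolute Z ratio above 1.5 and unadjusted p under 0.05).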

Additional observations from a re-analysis of the deposited data

Results flagged for a closer look

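Values are log2 levels for genes and list scores for lists. A value is given here when 1 animal lay far from the other 5 of its age, which chance alone produces in about 1 of 20 groups, and 180 groups were examined. Old replicate 3 had 0.712 for FLVCR2, with 0.98 to 1.08 in the other old animals. Young replicate 5 had 1.85 for FEN1, with 0.80 to 1.19 in the other young animals, and old replicate 1 had -0.35 for IDO2, with 0.12 to 0.22 in the other old animals.

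Young replicate 6 stood apart in 9 lists. It was low for glycogen and glucose uptake (-0.397), the proteasome (-0.265), mitochondrial dynamics (-0.330) and calcium handling (-0.485). It was high for inflammation (0.251), interferon (0.320), MHC (0.854), collagens and matrix (1.13) and the smooth muscle markers (1.10).

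Middle-aged replicate 6, whose array had the narrowest spread, was high for the ribosome (0.403, with -0.04 to 0.08 in the other 5) and for erythrocyte markers (0.687, with -0.89 to -0.43). Old replicate 1 was high for immediate early genes (0.866), old replicate 5 low for fast fibre genes (-0.902) and high for MHC (0.817), old replicate 6 high for the neuromuscular junction (0.198), old replicate 2 high for the neutrophil marker (-0.151) and old replicate 3 high for endothelial markers (0.128).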

How the results depend on the processing

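All 9 genes kept their direction in every setting that tested them and in every fit without 1 animal (NR1D1 was not tested at detection p under 0.01), but not their side of the threshold. Of the 6 higher and 3 lower genes, quantile normalization left 4 and 1, arrays centred without division by the SD gave 1 and 4 (4 genes shared with the 9), array weights gave 8 and 6, and detection p under 0.01 gave 0 and 0 over 7045 genes (smallest limma adjusted p 0.0540, with 398 and 697 genes at an unadjusted p under 0.05). With 15 animals, leaving out young replicate 6 and old replicates 1 and 2, 0 and 1 passed, the lower gene being KLHL21. The study's thresholds gave 205 and 332. No filter, neqc, the series matrix and the mean of probes stayed within 1.5 times the counts. Leaving out 1 animal gave 0 to 18 higher and 0 to 5 lower genes. No gene passed without young replicate 3, 4, 5 or 6, middle-aged replicate 3, 5 or 6, or old replicate 2 or 4, while 18 higher and 4 lower genes passed without young replicate 1. With the replicate number as a block, 0 genes passed in either direction (smallest adjusted p 0.0591, with 523 and 755 at an unadjusted p under 0.05). Same-numbered animals correlated between -0.259 and 0.22 and 1 of 18 matched its own number best, so the numbers mark no pairing. Genes with all middle-aged animals below the other 12 numbered 2, and 1 after quantile normalization, 9 on centred arrays and 8 among the 15 animals. The causes were not tested. The array measures kept their side of the threshold on detected probes.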
